A study of Caenorhabditis elegans with 4 samples.

Results

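The genes described here encode small antimicrobial peptides of the epidermis of the nematode Caenorhabditis elegans: the nlp-29 group (nlp-27, nlp-28, nlp-29, nlp-30, nlp-31 and nlp-34) and the caenacins cnc-1, cnc-2, cnc-4 and cnc-6. They were taken by symbol from the probes that name exactly 1 gene. Of the 10 listed genes, 8 were measured, out of 14887 named genes tested. The other 2, nlp-34 and cnc-6, were not analysed here. Each of the 8 had 1 probe and a value on all 4 arrays. The members were chosen by name with the mean log2 ratios of these 4 arrays already known, so their ratios are given as a description, without p-values; the number past the threshold is given beside its background, and nothing is read from it.

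The study measured RNA of wild-type L4 worms, larvae of the final stage before adulthood, on 4 arrays with 2 channels. Channel 2 held 1 of 4 L4 preparations and channel 1 a wild-type mixed reference RNA, whose composition is not given in the sources used here. All samples are wild type, no treatment or infection is named, and the arrays form a single group. Separate cultures are not mentioned for the preparations, and p-values measure only the spread between these arrays, part of which may be technical.

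Values are log2 ratios centred on each array's median. Which channel is the numerator is not stated. A negative value is called lower in L4, as the likely direction, because the labels name L4 first and the reference second. The arrays correlated with one another at 0.56 to 0.72 over all probes. Over all probes and genes, 4311 of 19897 (21.7%) differed from the reference in limma at an adjusted p below 0.05, and among named genes 13.4% were higher and 9.66% lower. Without preparation 3 the total was 2335. These are whole animals, in which fewer cells of a type and less RNA per cell cannot be told apart. The test also leaves out the spread of the reference, which counts as 1 sample.

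The nlp-29 group and the caenacins are known from the innate immune response of the worm's skin. The peptides are short, secreted and rich in glycine and aromatic residues. Infection by the fungus Drechmeria coniospora, which pierces the cuticle, switches on both families, and wounding also switches on nlp-29. Expression of nlp-29 depends on a p38 MAP kinase cascade inside the epidermal cell, and that of cnc-2 on the TGF-beta ligand DBL-1.

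The 8 measured members were all lower in L4 than in the reference, and lower in every preparation. Their mean log2 ratios ran from -4.10 for cnc-2 to -1.39 for nlp-30, with a median of -2.30 beside 0.04 for all named genes. In limma 8 of 8 passed the threshold as lower, beside a background of 9.66% of named genes. That count is a description, since the members were listed with these ratios known. Of the 32 single values, which come from 8 genes on the same 4 arrays, 32 were below 0 and 28 were below -1. The share of single values below -1 over all named genes was not counted. Being below 0 on all 4 arrays was true of 8 of 8 members and of 22.6% of the named genes with 4 values.

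**Figure D1:**
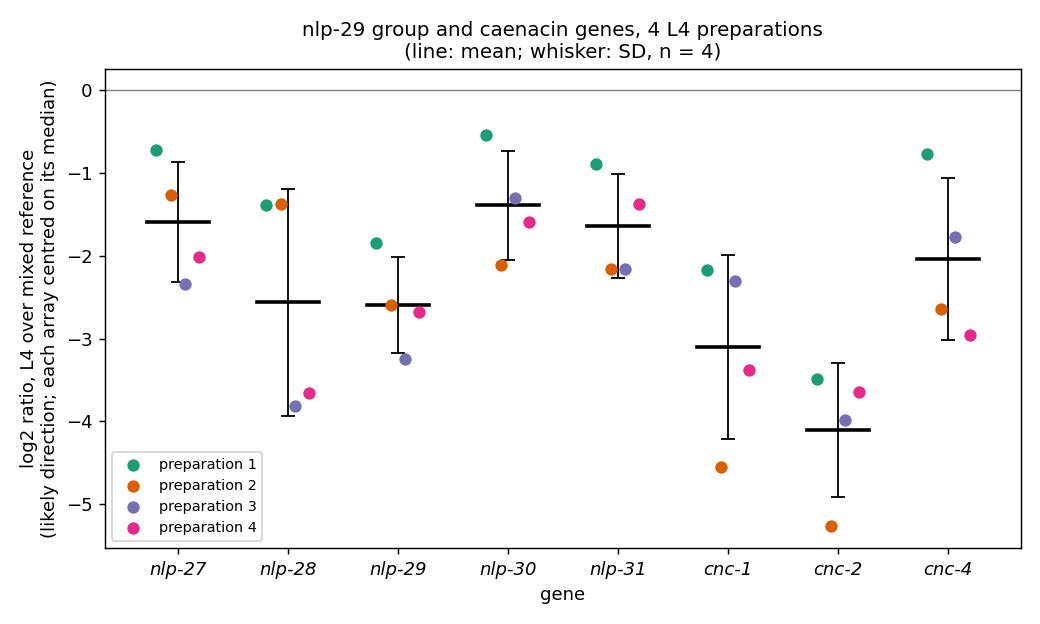
Log2 ratio of L4 over the mixed reference (vertical axis, likely direction) for the 8 measured genes, with 1 point per preparation, a line at the mean and a whisker for the SD (n = 4). All points lie below 0, and the lowest value is that of cnc-2 in preparation 2 at -5.27.

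The gene after which the group is named, nlp-29 (B0213.4), is the usual reporter of epidermal immune activation. Its log2 ratios were -1.84, -2.59, -3.25 and -2.68 in preparations 1 to 4. The mean was -2.59 ± 0.58 (SD, n = 4), which is 6.02-fold lower, with single preparations from 3.59-fold to 9.52-fold. Its neighbour nlp-28 (B0213.3), a peptide gene of the same group, stood at -1.38, -1.37, -3.82 and -3.66. It was far lower in preparations 3 and 4 than in preparations 1 and 2, while for nlp-29 preparations 2 and 4 were close to each other. The nlp-28 mean was -2.56 ± 1.37 (SD, n = 4), 5.88-fold lower. On the same array nlp-29 was lower than nlp-28 in preparations 1 and 2 and higher in preparations 3 and 4, and the mean difference was -0.03 ± 1.00 (SD, n = 4).

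The remaining peptide genes of the group had smaller ratios. For nlp-27 (B0213.2) the values were -0.72, -1.27, -2.34 and -2.01, with a mean of -1.59 ± 0.73 (SD, n = 4), and preparations 3 and 4 were again the lowest. For nlp-31 (B0213.6) they were -0.89, -2.16, -2.16 and -1.37, with a mean of -1.64 ± 0.63, and preparations 2 and 3 were the lowest. For nlp-30 (B0213.5) they were -0.54, -2.11, -1.30 and -1.59, with a mean of -1.39 ± 0.66 and a single lowest value in preparation 2. In fold terms nlp-31, nlp-27 and nlp-30 were 3.12-fold, 3.00-fold and 2.61-fold lower. The ratio of nlp-29 was below that of each of these genes on all 4 arrays, with mean differences of -0.95 against nlp-31, -1.0 against nlp-27 and -1.20 against nlp-30.

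Among the caenacins, cnc-2 (R09B5.3), the member induced through DBL-1 signalling, had the lowest ratio of the whole group. Its values were -3.49, -5.27, -3.98 and -3.64 in preparations 1 to 4, a mean of -4.10 ± 0.81 (SD, n = 4). It was 17.1-fold lower, from 11.3-fold to 38.7-fold in single preparations, and ranked 9 from the bottom of 14887 named genes, or 9 from the top with the sign of the ratio turned. Its relative cnc-1 (R09B5.2) stood at -2.17, -4.55, -2.30 and -3.38, with a mean of -3.10 ± 1.11. As in cnc-2, the lowest value was in preparation 2. The third, cnc-4 (R09B5.9), stood at -0.77, -2.64, -1.77 and -2.96, with a mean of -2.04 ± 0.98. It was lowest in preparation 4 and closest to 0 in preparation 1.

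Ordered by mean ratio from the lowest, the members ran cnc-2, cnc-1, nlp-29, nlp-28, cnc-4, nlp-31, nlp-27 and nlp-30. Of the neighbours in that order, cnc-2 was below cnc-1 on 4 of 4 arrays, with a mean difference of -1.0 ± 0.63 (SD, n = 4). The other neighbours changed places between arrays, and their mean differences, from -0.52 to -0.03, were smaller than the SD of the difference. This is an order of ratios to the reference, not of transcript levels. The probes' sequences were not used here, and the genes within each family resemble one another, so signal from a relative on a member's probe was not tested.

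The preparations differed in how far the group was below 0. Preparation 1 held the value nearest 0 for 7 of the 8 members, the exception being nlp-28, where preparation 2 was nearer by under 0.05. The member median was -1.13 in preparation 1 and -2.37, -2.32 and -2.82 in preparations 2 to 4. The spread of ratios over all probes was also narrow in preparation 1, with an SD of 0.95 against 1.19 and 1.21 in preparations 2 and 3, but it was narrowest in preparation 4 at 0.85. Ranked among named genes on the same array, the members lay between percentiles 0.133 and 17.0 in preparation 1. They lay between 0.0272 and 8.50 in preparation 2, 0.21 and 8.69 in preparation 3, and 0.205 and 3.64 in preparation 4. The lowest value fell in preparation 2 for 4 members, in preparation 3 for 3 and in preparation 4 for 1. Which preparation is lowest or nearest 0, here and gene by gene above, depends on the centring. Centring on housekeeping genes subtracted a further -0.06, 0.16, -0.56 and 0.40 from preparations 1 to 4. The places of the preparations were not recounted under it. The percentiles within an array do not depend on the centring.

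The measured members lie in an nlp and a cnc cluster, both on chromosome V, by the gene order of assembly WBcel235. The listed caenacin cnc-6 lies on chromosome III. The nlp cluster holds 6 protein-coding genes, all of them listed members, in the order nlp-34, nlp-31, nlp-30, nlp-29, nlp-28 and nlp-27. Of the 5 nearest measured genes on each side, among them chemoreceptor and cytochrome P450 genes, 1 was higher and 0 were lower in limma. Among named genes 13.4% were higher and 9.66% lower. At an unadjusted p below 0.05, 1 flanking gene was lower. That gene, cyp-34A9, stood at -1.09 (adjusted p = 0.0589, and 0.0193 without preparation 1). The gene that passed was the chemoreceptor gene str-82 at 1.09 (adjusted p = 0.0333), which missed the threshold without preparation 1, 2 or 3 (0.122, 0.093 and 0.129) or with housekeeping centring (0.138). The 10 flanking genes had a median of 0.25.

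The cnc cluster also holds 6 protein-coding genes, in the order cnc-11, cnc-1, cnc-5, cnc-4, cnc-3 and cnc-2, and here low ratios alternated with ratios near 0 on average. The members cnc-1, cnc-4 and cnc-2 stood at -3.10, -2.04 and -4.10. Between them cnc-5 was at 0.60, 0.04, 0.12 and -0.05 in preparations 1 to 4, a mean of 0.17 ± 0.29 (SD, n = 4), and did not pass in limma (adjusted p = 0.591). Next to cnc-2, cnc-3 was at -0.02, -2.20, -0.16 and 1.43, a mean of -0.24 ± 1.50 (adjusted p = 0.757). The ratio of cnc-2 was below that of cnc-3 on all 4 arrays, with differences from -5.07 to -3.07. The single cnc-2 probe was below each of the 2 cnc-3 probes on every array. Of the 10 flanking measured genes, 3 were higher and 1 lower, beside 13.4% and 9.66% of named genes, and the flanking median was 0.12. Those called were the gut esterase gene ges-1 at 1.62 (adjusted p = 0.00244), pqn-54 at 2.83 (0.00406), hacd-1 at -2.24 (0.00554) and R12A1.3 at 0.80 (0.027). Leaving out preparation 1, 2 or 3 brought R12A1.3 to an adjusted p of 0.117, 0.0754 and 0.072, so that it no longer passed, as did housekeeping centring (0.117).

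**Figure D2:**
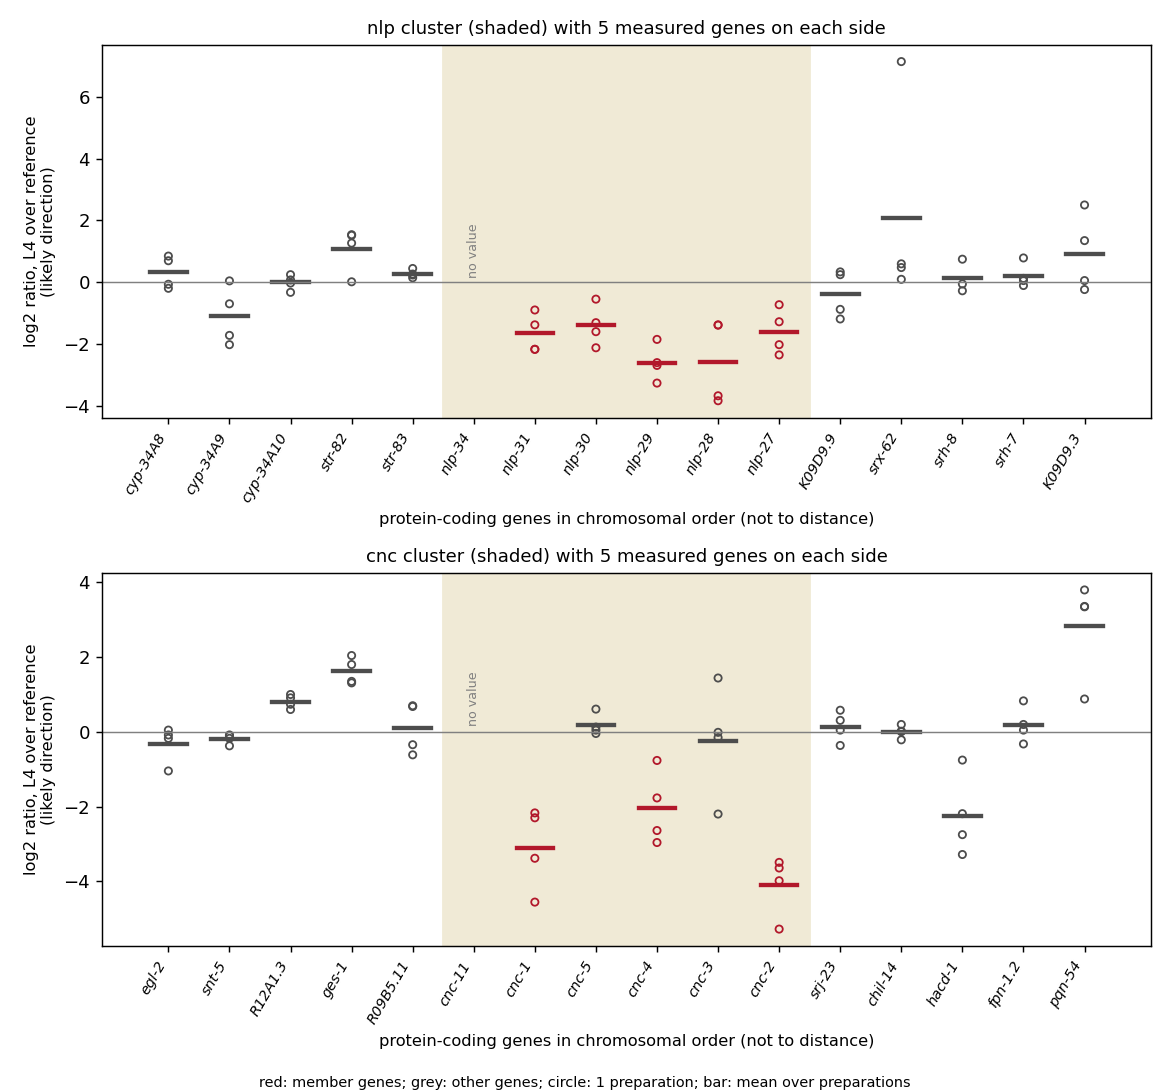
Log2 ratios of L4 over the reference (vertical axes, likely direction) of the genes of both clusters (shaded) and 5 measured genes on each side, in chromosomal order and not to distance; circles are preparations and bars means. All measured nlp cluster genes lie below 0, while cnc-5 and cnc-3 lie near 0 on average between low caenacins.

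Some related genes outside the list were lower as well. Of 8 measured relatives, 3 were lower and 0 higher in limma, beside 9.66% and 13.4% of named genes. None of the relatives was higher at an unadjusted p below 0.05. These genes, like the members, belong to families whose results were known when the list was drawn up. The gene nlp-32, of the same peptide type but on chromosome III, stood at -1.75, -2.73, -3.05 and -2.18, a mean of -2.43 ± 0.57 (SD, n = 4; adjusted p = 0.000977 in limma). On each array it was within 0.49 of nlp-29. The caenacin gene cnc-7, on chromosome V outside the cluster, was at -1.68 ± 0.31 (adjusted p = 0.00185), with all preparations between -2.06 and -1.32. The third, nlp-26, was at -1.34 ± 0.95 (adjusted p = 0.0292) and did not pass without preparation 2 (0.0829) or without preparation 3 (0.0827). For nlp-24, nlp-25 and cnc-8 the means were -0.01, 0.33 and -0.08, and none of these passed (adjusted p = 0.978, 0.4 and 0.863).

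Other families named for induction by fungus, for likeness to such genes or for antibacterial activity were mixed. Of 12 measured genes of the fungus-induced fip family and the related fipr family, 5 were lower and 3 higher in limma. Among named genes 9.66% were lower and 13.4% higher. The fip and fipr median was -0.35. Lower were fipr-24 at -3.43 ± 0.92 (SD, n = 4), fip-5 at -2.25 ± 0.63 and fipr-22 at -2.15 ± 0.93. The highest, fipr-16, was at 2.02 ± 1.75 (adjusted p = 0.0377) and did not pass without preparation 2, 3 or 4 (0.105, 0.1 and 0.0504), with housekeeping centring (0.119) or with robust shrinkage (0.0734). The 3 higher were 1 without preparation 1, 1 without preparation 3 and 0 without preparation 4, when 3 had an unadjusted p below 0.05, and 1 with housekeeping centring. Of 3 measured abf genes, which encode defensin-like antibacterial factors, abf-5 was lower at -1.18 ± 0.32 (adjusted p = 0.008), while abf-3 and abf-4 were at 0.09 and 0.11.

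The nlp symbol covers neuropeptide-like genes of the nervous system too, and many of those were also lower. Of 44 measured nlp genes outside the members and their relatives, 29 were lower and 2 higher in limma. Among all named genes 9.66% were lower and 13.4% higher. The median of these 44 nlp genes was -1.20 beside -1.64 for the 5 nlp members. The largest were nlp-12 at -2.72 ± 0.63 (SD, n = 4), nlp-15 at -2.31 ± 0.36, nlp-47 at -2.11 ± 0.34 and nlp-8 at -2.05 ± 0.49. The count of 2 higher was 1 without preparation 2, without preparation 3 and with housekeeping centring. Neuronal markers were lower too: 6 of 12, among them the neuropeptide processing gene egl-3 at -1.79 and the SNARE gene ric-4 at -1.59, were lower and 0 were higher, also at an unadjusted p below 0.05. The part of nervous tissue in the members' ratios was not tested.

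**Figure D3:**
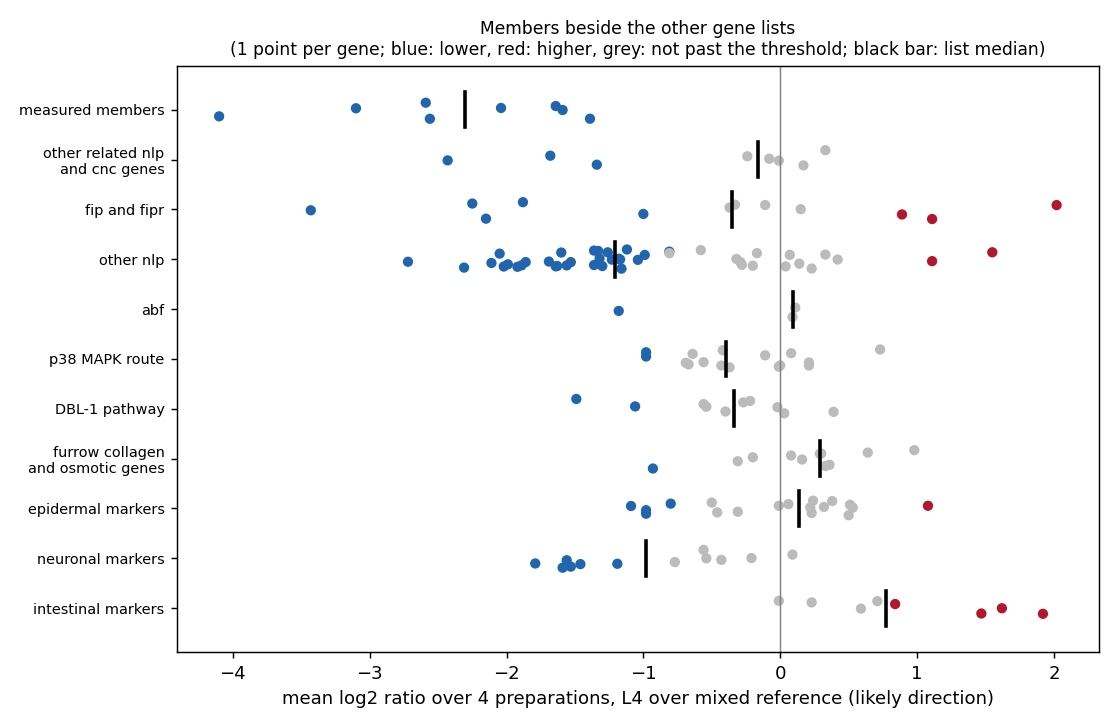
Mean log2 ratio over the preparations (horizontal axis, likely direction) of each gene in the members and in 10 other lists, coloured by the limma call, with a black bar at each list's median. The member median is -2.30, the other nlp genes lie around -1.20, and the epidermal markers lie around 0.14.

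Genes of the p38 pathway upstream of nlp-29 mostly did not pass the test. Of 16 measured, 2 were lower and 0 higher in limma, beside 9.66% lower and 13.4% higher among named genes. At an unadjusted p below 0.05, 6 were lower and 1 higher. The mean was below 0 for 11 of the 16, and the list median was -0.40. The 2 that passed were at the transcription end of the route. The STAT-like factor gene sta-2 stood at -0.77, -1.14, -1.27 and -0.75, a mean of -0.98 ± 0.26 (SD, n = 4; adjusted p = 0.0144). The epidermal GATA factor gene elt-3 stood at -0.89, -0.75, -1.75 and -0.54, a mean of -0.98 ± 0.53 (adjusted p = 0.0285). Neither call held without each array. For sta-2 the adjusted p was 0.0522 without preparation 1 and 0.0517 without preparation 3, and for elt-3 it was 0.0827, 0.0546 and 0.0764 without preparation 1, 2 or 3.

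Along the rest of that route no gene passed. The G protein subunit gene gpa-12 was at 0.73 (adjusted p = 0.0596), the phospholipase C genes egl-8 and plc-3 at -0.37 and 0.21, and the protein kinase C gene pkc-3 at -0.01. The adaptor gene tir-1 was at -0.67 (adjusted p = 0.0877), and the kinase genes nsy-1, sek-1 and pmk-1, which follow it in order, were at 0.08, -0.43 and -0.42. Of these 3 kinases sek-1 was the only one below 0 in every preparation. The Tribbles-like kinase gene nipi-3 was at -0.56 and nipi-4 at -0.64. The gene for the transporter-like protein SNF-12, a partner of STA-2, was at 0.00, that for the scaffold RACK-1 at 0.21, and vhp-1, which encodes a MAP kinase phosphatase, at -0.69 (adjusted p = 0.059). hpd-1, whose loss lets an activating tyrosine metabolite build up, was at -0.11. The receptor gene dcar-1 and the kinase gene tpa-1 were not analysed here.

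In the pathway of the ligand DBL-1, on which cnc-2 depends, a receptor gene and a receptor-associated gene were lower. Which of the listed pathway genes act on cnc-2 was not tested. Of 10 measured genes, 2 were lower and 0 higher in limma, beside 9.66% lower and 13.4% higher among named genes. At an unadjusted p below 0.05, 3 were lower and 0 higher. The mean was below 0 for 8 of the 10, and the list median was -0.34. The type II receptor gene daf-4 stood at -1.53, -1.38, -2.43 and -0.61, a mean of -1.49 ± 0.75 (SD, n = 4; adjusted p = 0.0109). The membrane protein gene sma-10 stood at -1.19, -1.23, -1.32 and -0.48, a mean of -1.06 ± 0.39 (adjusted p = 0.0147), and did not pass without preparation 1 (0.0704) or without preparation 3 (0.0597). The ligand gene dbl-1 was at -0.27 and the type I receptor gene sma-6 at -0.54. The Smad genes sma-2, sma-3 and sma-4 were at -0.56, -0.02 and -0.22. The cofactor gene sma-9 was at -0.40, lon-1 at 0.03 and lon-2, which encodes a glypican that restrains the pathway, at 0.39. None of these 8 passed, with adjusted p from 0.113 to 0.967.

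Damage to the furrow collagens of the cuticle is known to switch nlp-29 on, and these genes varied more between preparations than between L4 and the reference. The 5 measured furrow collagen genes, dpy-2, dpy-3, dpy-7, dpy-8 and dpy-9, lay between -0.19 and 0.51 in preparation 1 and between -2.17 and -0.74 in preparation 2. They lay between -0.83 and -0.18 in preparation 3 and between 1.92 and 2.31 in preparation 4. None passed in limma, with means from -0.31 to 0.36 and adjusted p from 0.592 to 0.928. The values of cnc-3 in the same arrays, -0.02, -2.20, -0.16 and 1.43, were likewise lowest in preparation 2 and highest in preparation 4. In preparation 4, where the 5 collagens were at 1.92 or higher, the 8 members were at -1.37 or lower.

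**Figure D4:**
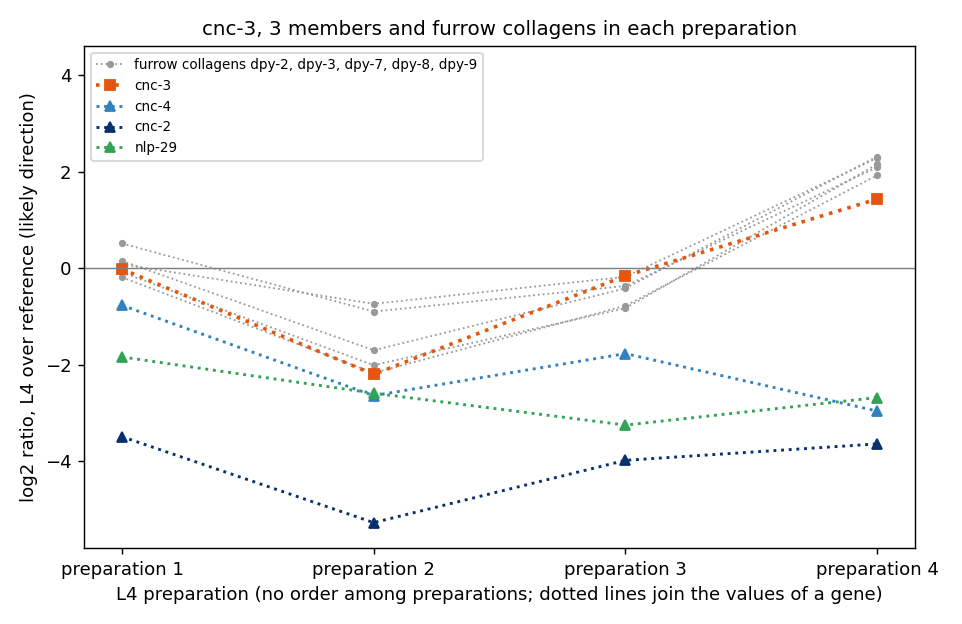
Log2 ratio of L4 over the reference (vertical axis, likely direction) in each preparation (horizontal axis, no order) for cnc-3, for the members cnc-4, cnc-2 and nlp-29, and for 5 furrow collagen genes. In preparation 4 the collagens reach 1.92 to 2.31 and cnc-3 reaches 1.43, while cnc-4, cnc-2 and nlp-29 are at -2.96, -3.64 and -2.68.

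Of the other damage and osmotic genes, osm-11 was lower at -0.93 ± 0.55 (SD, n = 4; adjusted p = 0.0364 in limma). The call was lost without preparation 1, 3 or 4 (adjusted p = 0.0915, 0.1 and 0.089) or with housekeeping centring (0.0606). The glycerol synthesis gene gpdh-1, which responds to osmotic stress, was at 0.98 ± 0.85 (adjusted p = 0.0652), and passed without preparation 2 at a mean of 1.25 (0.0454). The genes osm-7, osm-8, ptr-23 and dapk-1 were at 0.16, 0.64, 0.30 and 0.29, and none passed. Over the 11 measured genes of this list, collagens included, 1 was lower and 0 higher, beside 9.66% and 13.4% of named genes. At an unadjusted p below 0.05, 1 was lower and 1 higher, and the list median was 0.29.

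Markers of the epidermis, where the members are expressed, included genes lower and higher than the reference. Of 18 measured, 4 were lower and 1 higher in limma, beside 9.66% and 13.4% of named genes. The marker median was 0.14, with medians of 0.03, -0.82, -0.15 and 0.80 in preparations 1 to 4. Lower were the nuclear receptor gene nhr-25 at -1.09, sta-2 and elt-3 as above, and elt-1 at -0.80, and the higher one was the hemidesmosome gene mup-4 at 1.08. The 4 lower were 1 without preparation 2, 0 without preparation 1 or 3, when 4 had an unadjusted p below 0.05 each time, and 2 with housekeeping centring. The other 13 did not pass, among them the epidermal fate gene lin-26 at -0.46 (adjusted p = 0.177). Of 8 measured intestinal markers, 4 were higher and 0 lower, also at an unadjusted p below 0.05, with the intestinal actin gene act-5 at 1.92 and vha-6 at 1.47.

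The genes whose ratios were closest to those of nlp-29 over the 4 arrays, by root mean square difference among 14364 other named genes, were cpi-1, a cystatin gene, at 0.18, snrp-40.1 at 0.26, nlp-32 at 0.28 and the collagen gene col-85 at 0.28. The nearest fellow member to nlp-29 was nlp-28 at 0.87. Closest to cnc-2 were the collagen genes col-158 at 0.43 and col-45 at 0.52. With them were hsp-12.6, which encodes a small heat shock protein, at 0.50 and T28A11.19 at 0.57. The nearest fellow member to cnc-2 was cnc-1 at 1.14. Among 14364 genes the smallest distance is likely to be below that among a few members, so nothing is read from the difference. Likeness over 4 arrays of a single condition describes these arrays only.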

How the data were processed

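For each array the authors deposited values of 21632 probes, and the sources used here give no unit, background correction or normalization. These deposited numbers were taken as log2 ratios, because 2 raised to each value below 0 fell on a grid of 0.001 for 100% of them (tolerance 0.02 steps), against at most 5.9% for other bases. Column medians as deposited were -0.047, 0.007, -0.1 and -0.042. Whether the authors centred the arrays is not stated, and neither is the direction.

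Each array was centred on its median, probes of a gene were averaged, and at least 3 values were required. Of the probes, 16450 named 1 gene, 247 several and 4935 none, and 16360 matched WBcel235 names by gene ID. Mean ratios were tested against 0, two-sided, with limma 3.58.1 in R 4.3.3, with Benjamini-Hochberg adjustment over 19897 probes and genes. In simulated data, 84% of genes changed by 2 (log2) were recovered and 6% of those changed by 1. There 50 of 19897 probes and genes were changed at each size, while 4311 passed in the real data. With fewer changed genes the adjustment is stricter, so these shares do not give the recovery in the real data. Tables and figures used Python 3.11.15 and pandas 2.3.3.

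Members and lists were chosen with earlier results of these data known. The text names all members, their relatives and pathway genes, and the 4 genes nearest to nlp-29 and to cnc-2. In each other list it names up to 4 passing genes with the largest absolute mean. Beyond that rule, elt-1, which passed, and abf-3, abf-4 and lin-26, which did not, are also named. Genes beside the clusters were chosen after their values were seen. No sequences are shown. The number of arrays limits the precision. Alternatives were other centrings, filters, probes and shrinkage, and each preparation left out.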

Additional observations from a re-analysis of the deposited data

Results flagged for a closer look

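In 3 of 91 genes checked, 1 preparation stood apart from the other 3 by more than Dixon's critical value for the gap over the range; chance alone flags about 1 gene in 20. None of the 8 measured members was among them. The chemoreceptor gene srx-62, beside the nlp cluster, was at 7.13 in preparation 3 and at 0.60, 0.48 and 0.10 in preparations 1, 2 and 4 (gap over range 0.929). The DBL-1 pathway gene sma-10 was at -0.48 in preparation 4 and between -1.32 and -1.19 in the others (0.844). The gene pqn-54, beside the cnc cluster, was at 0.87 in preparation 4 and between 3.33 and 3.78 in the others (0.844).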

How the results depend on the processing

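Over the alternatives the mean was between -1.67 and -1.07 for nlp-30 and between -4.30 and -3.57 for cnc-2; since all single values were below 0, leaving out arrays could not turn a member's sign. The count of members lower was 7 to 8 on leaving out 1 preparation, and the member not counted without preparation 3, and also with housekeeping centring, was nlp-30. Among named genes 5.97%, 6.82%, 4.95% and 7.66% were lower without preparation 1, 2, 3 and 4, and 5.48% with housekeeping centring. On leaving out 1 preparation the total ran from 2335 to 3628, with 1358 to 2149 higher and 977 to 1479 lower. The ranges of genes lower were 0 to 2 in the p38 route, 1 to 2 in the DBL-1 pathway, 0 to 1 among damage and osmotic genes and 0 to 3 among epidermal markers; those of genes higher were 0 to 1 among damage and osmotic genes, 0 to 2 for fip and fipr and 1 to 2 for other nlp genes. With housekeeping centring, which subtracted a further -0.06, 0.16, -0.56 and 0.40 from preparations 1 to 4, 2388 passed, 1314 higher and 1074 lower; 0 damage or osmotic genes were lower (1 at an unadjusted p below 0.05), 2 epidermal markers were lower, and 1 fip or fipr and 1 other nlp gene were higher. The titles of preparations 1 and 4 share a letter prefix of unstated meaning. Those 2 arrays alone, chosen after seeing the data, gave 734 calls, 433 higher and 301 lower. With them 3 members were lower (cnc-1, cnc-2 and nlp-29), beside 1.67% of named genes. Also lower were 1 relative, 1 fip or fipr and 7 other nlp genes, and 1 intestinal marker was higher. For the other lists the count was 0: lower in the p38 route, the DBL-1 pathway, damage and osmotic genes, epidermal and neuronal markers and abf genes (2, 2, 1, 3, 5 and 1 at an unadjusted p below 0.05), and higher in fip and fipr, other nlp genes and epidermal markers (3, 2 and 2). The cause of these changes, other than fewer arrays, was not tested. The prefix as a random block was not run, since 4 arrays in 3 blocks gave no estimate. No paired analysis was possible because there is 1 group. Depth is unknown, and signal over background is not given.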
